A study of Mus musculus with 6 samples.

Results

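The 10 core macrophage genes Adgre1, Cd68, Csf1r, C1qa, C1qb, C1qc, Lyz2, Pf4, Aif1 and Ctss were followed in bulk RNA from mouse dorsal skin, out of 55291 genes in the deposited tables. They were taken by gene name, all 10 were found, and all 10 passed the filter on low counts that left 19971 genes for testing. The skin was that of 3 mice with the tight skin mutation (TSK) and of 3 littermates without it (WT), all C57BL/6 and 6 to 8 weeks old by the sample labels, with 1 library per mouse and no treatment named. The mutation is an internal duplication in Fbn1, which encodes the microfibril protein fibrillin 1; it is present in every cell, and the line is kept by backcrossing to C57BL/6. The labels call the mice female and the methods call them male. The Y-linked gene Ddx3y was at 56.7 to 72.8 CPM (counts scaled to an equal total in each library) in the 6 libraries, with Xist at 2.57 to 4.58 CPM. Y-linked RNA was thus present in every library, as in male mice. Whole skin was used, so each value sums over all cell types of the piece, and fewer macrophages cannot be told apart from less of an RNA per macrophage.

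Library totals were 17561453 to 19219814 estimated counts. The 10 genes together took 0.0176% to 0.0372% of the counts in WT and 0.0337% to 0.0881% in TSK. Adult skeletal muscle genes, a list of 13, took 13.3% to 22.0% of the counts. Fbn1 rose from 273 ± 14.2 CPM in WT to 1943 ± 377 CPM in TSK (SD, n = 3), a difference of 2.54 on the log2 scale by edgeR (adjusted p = 0.00327). The library TSK 3 stood above the others in most of the 10 genes and WT 2 stood below them.

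Macrophages of the skin are kept alive by signals through the receptor that Csf1r encodes, which binds the growth factors made from Csf1 and Il34. They take up dying cells and debris, coat targets with complement C1q, and break down what they ingest in lysosomes. Several of the 10 genes are also used by other cells: Lyz2 by neutrophils, Pf4 by platelets and their precursors, and Aif1 and Ctss by monocytes and dendritic cells.

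Promoters are shown for 4 of the genes, because the transcription factor PU.1, encoded by Spi1, is required for macrophage identity and binds sequences with the core GAGGAA. C1qb and Pf4 stand for the genes with fitted values above WT, Cd68 for the genes near no difference and Ctss for the genes with values below WT. Each sequence holds the 250 bases before the RefSeq start (GRCm38.p6, the mm10 build), 5′ to 3′ on the strand of the gene, and capitals mark GAGGAA or its reverse complement TTCCTC.
C1qb (chr4:136886201-136886450, minus strand): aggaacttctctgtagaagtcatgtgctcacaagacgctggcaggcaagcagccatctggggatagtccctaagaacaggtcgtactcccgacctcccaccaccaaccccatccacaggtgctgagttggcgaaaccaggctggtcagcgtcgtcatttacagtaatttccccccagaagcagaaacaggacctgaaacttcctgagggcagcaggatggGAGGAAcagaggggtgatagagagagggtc
Pf4 (chr5:90772185-90772434, plus strand): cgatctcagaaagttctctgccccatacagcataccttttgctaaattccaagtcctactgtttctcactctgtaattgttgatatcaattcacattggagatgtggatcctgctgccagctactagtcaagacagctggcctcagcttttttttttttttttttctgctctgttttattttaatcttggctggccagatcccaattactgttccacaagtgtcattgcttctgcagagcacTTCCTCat
Cd68 (chr11:69666171-69666420, minus strand): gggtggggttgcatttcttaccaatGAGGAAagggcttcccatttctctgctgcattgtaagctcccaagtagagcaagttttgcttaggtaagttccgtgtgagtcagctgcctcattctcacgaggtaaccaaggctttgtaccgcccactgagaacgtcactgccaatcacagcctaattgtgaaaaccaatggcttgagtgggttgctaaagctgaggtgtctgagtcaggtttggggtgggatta
Ctss (chr3:95526536-95526785, plus strand): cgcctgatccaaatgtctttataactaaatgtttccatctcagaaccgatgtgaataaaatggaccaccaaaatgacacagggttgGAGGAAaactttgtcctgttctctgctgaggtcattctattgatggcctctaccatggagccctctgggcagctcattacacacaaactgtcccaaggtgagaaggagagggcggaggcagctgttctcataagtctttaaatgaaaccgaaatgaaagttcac
A RefSeq promoter was found for 7 of the 10 genes. The core was present on either strand in 6 of these 7 (C1qb, C1qc, Pf4, Cd68, Aif1 and Ctss), and in 23.1% of 27025 promoters of the same length. The promoter of Lyz2, a gene with a log2 fold change of 0.84, held no match and is not printed. The 4 promoters printed all held the core, so they cannot show how it relates to the sign of a fold change. The AP-1 sequence TGANTCA was found only in Cd68 among the 7, at 2 places, and in 6.87% of all promoters. A match describes letters and does not show that a factor was bound.

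Of the 10 genes, 0 passed an adjusted p of 0.05 in edgeR's quasi-likelihood test, where 3.39% of all 19971 genes did (2.71% higher and 0.681% lower in TSK). At an unadjusted p below 0.05 there were 7: Csf1r, C1qa, C1qb, C1qc, Lyz2 and Pf4 with values higher in TSK, and Aif1 with values lower. Over all genes tested, 20% met that limit, 12.1% with higher and 7.9% with lower values. The median log2 fold change of the 10 genes was 0.90, against -0.026 over all genes tested, and 5.86% of all genes lay above 0.90. Without TSK 3 the median of the 10 was 0.34. The 10 genes did not share 1 direction. The log2 fold change of 6 lay between 0.84 and 1.12, that of Adgre1 and Cd68 was within 1 SE of 0, and that of Ctss and Aif1 was negative. With DESeq2, the tool the study used, 3 genes passed 0.05, namely Csf1r, Pf4 and C1qc, all with higher values in TSK, where 7.58% of all genes passed in either direction. The study asked for an adjusted p under 0.01 together with more than a 2.5-fold difference, and 0 of the 10 genes met both with edgeR (0.255% of all genes, higher, and 0.0351%, lower) or with DESeq2 (1.52% and 0.318%).

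The number of genes past 0.05 depended on the fit. It was 0 of 10 with edgeR on DESeq2 size factors (3.62% of all genes), upper quartile scaling (3.27%), a filter of 1 CPM in 3 libraries (3.92%), muscle, ribosomal and mitochondrial genes left out (3.46%) and limma-voom (2.73%). Csf1r and Pf4 passed with library size only (8.9%), with limma-trend on log2(CPM + 1) (9.37%) or log2(CPM + 0.1) (9.31%), and without a low-count filter (3.98%). Csf1r alone passed with a replicate block (3.98%) and without TSK 1 (2.56%). No gene of the 10 passed without WT 1 (6.13%), WT 2 (1.39%), WT 3 (0.29%), TSK 2 (1.86%) or TSK 3 (1.9%).

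**Figure D1:**
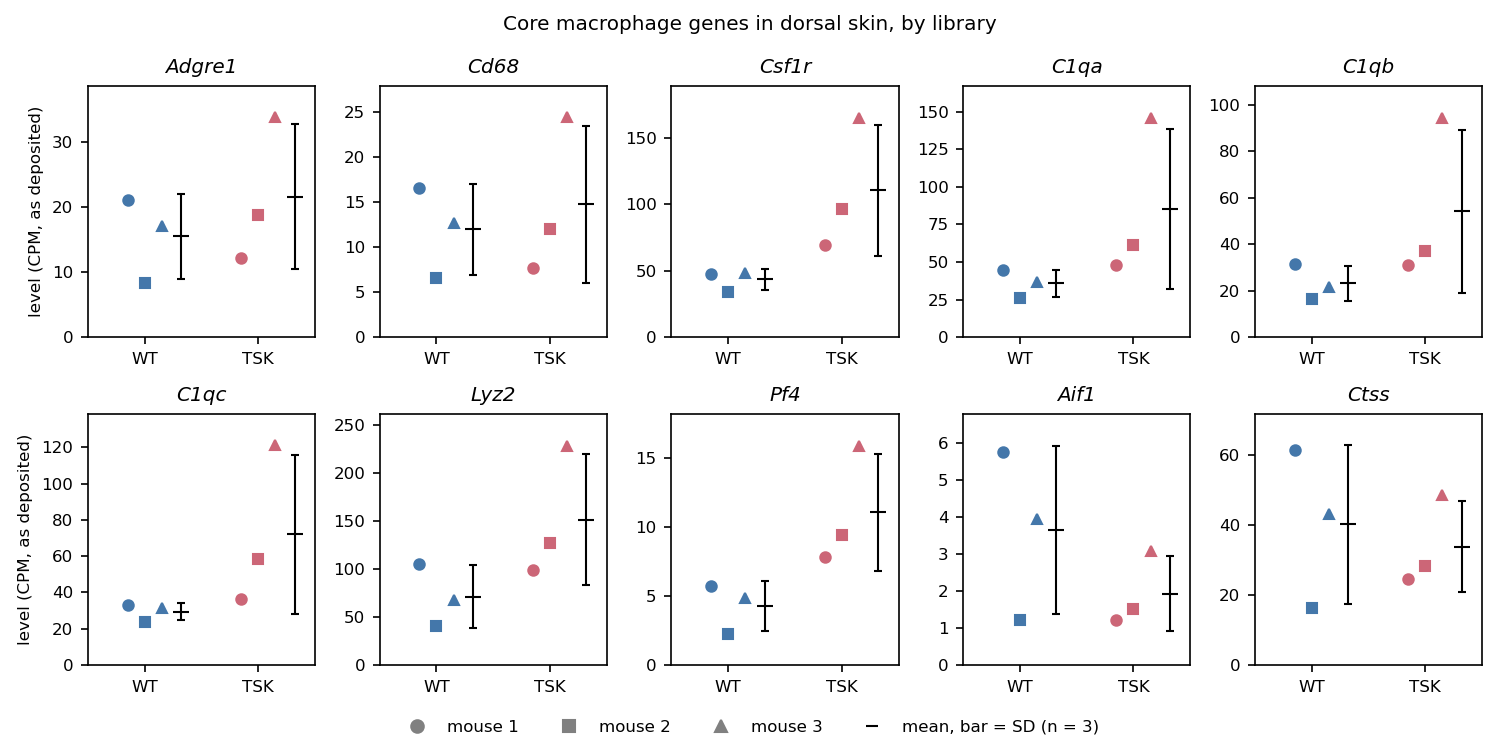
Level of each of the 10 genes in CPM as deposited (vertical axes start at 0), with 1 point per mouse for WT and TSK and the mean with SD (n = 3) beside the points. TSK 3 (triangle) was the highest of the 6 libraries in 8 genes, and the TSK and WT points separate only in Csf1r, C1qa, C1qc and Pf4.

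The spread followed single libraries. TSK 3 was the highest of the 6 libraries in 8 of 10 genes, all but Aif1 and Ctss, and WT 1 was the highest in those 2. WT 2 was the lowest in 9 of 10 genes. On deposited CPM, the TSK libraries lay above every WT library in 4 genes (29.1% of all genes tested, with 2.58% below every WT library), and after TMM scaling, which limits the weight of a few abundant genes, in 3 (14.1% of all genes above and 10.6% below). The difference was C1qc. No gene lay below every WT library on either scale. TSK 3 also held the highest summed level of 8 fibroblast genes, at 47730 CPM. The other TSK libraries held 20600 and 20990 CPM, and WT held 6377 to 9679 CPM. Most of the sum came from collagen RNAs, with Col1a1 at 22610, Col3a1 at 13650 and Col1a2 at 10550 CPM in TSK 3. Each gene of the list but Lum was highest in TSK 3, and Lum was at 48.6 CPM there and 52.1 CPM in TSK 2. The part of tissue makeup in the macrophage values was not tested.

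Csf1r, the receptor tyrosine kinase for colony stimulating factor 1, lies on chromosome 18 at 61100598 to 61132149 in mm10. WT 1, WT 2 and WT 3 held it at 47.4, 34.3 and 48.6 CPM, and TSK 1, TSK 2 and TSK 3 at 69.6, 96.4 and 165 CPM; libraries are named in this order throughout. The groups did not overlap, with the lowest TSK library well above the highest WT library. By edgeR, TSK exceeded WT by 1.06 on the log2 scale (SE 0.27, adjusted p = 0.0756), the smallest adjusted p of the 10 genes. It was 0.0360 without TSK 1 and 0.00326 with DESeq2, and the log2 fold change was 0.68 without TSK 3. Hmgxb3 overlaps Csf1r on the other strand and 14.3% of the 50-base stretches of Csf1r transcripts also occur in Hmgxb3, whose own log2 fold change was 0.013 (SE 0.11). Whether the counting used strand is not given in the sources used here.

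Adgre1, an adhesion receptor used as the standard surface marker of mouse macrophages, lies on chromosome 17 at 57358691 to 57483527. In CPM it stood at 21.0, 8.36 and 17.0 in WT and at 12.2, 18.8 and 33.8 in TSK. The groups overlapped widely, since TSK 1 lay below both WT 1 and WT 3. edgeR put it at 0.23 on the log2 scale (SE 0.36, adjusted p = 0.784), and it was -0.23 without TSK 3 and -0.023 without WT 2. The sign of the Adgre1 difference thus depended on single libraries.

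C1qa, C1qb and C1qc encode the chains of C1q, the recognition part of the first complement complex, and lie side by side on the minus strand of chromosome 4, from 136880129 to 136898803. C1qa was at 44.5, 26.1 and 36.7 CPM in WT and 48.3, 61.7 and 146 CPM in TSK. All TSK libraries were above WT, but TSK 1 exceeded WT 1 by little and TSK 3 stood far apart. C1qb was at 31.4, 16.6 and 21.8 CPM in WT and 30.8, 37.3 and 94.3 CPM in TSK, where TSK 1 lay just below WT 1. C1qc was at 32.8, 23.9 and 31.6 CPM in WT and 36.2, 58.6 and 121 CPM in TSK. In edgeR's fit the chains gave close log2 differences, at 0.98 (SE 0.36, adjusted p = 0.178), 0.95 (SE 0.38, adjusted p = 0.209) and 1.01 (SE 0.36, adjusted p = 0.167). Without TSK 3 they were 0.37, 0.31 and 0.43.

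Lyz2, the lysozyme of macrophages and other myeloid cells, lies on chromosome 10 at 117277331 to 117282321. The 3 WT mice gave 106, 40.2 and 67.7 CPM and the 3 TSK mice 98.5, 127 and 229 CPM. TSK 1 fell within the WT range. TSK minus WT came to 0.84 on the log2 scale (SE 0.34, edgeR adjusted p = 0.213) and to 0.44 without TSK 3. Of the 50-base stretches of Lyz2 transcripts, 15.4% also occur in its paralog Lyz1, so the split of reads between them is uncertain. Lyz1, a lysozyme gene best known from Paneth cells of the intestine, was at 1.64, 1.78 and 1.36 CPM in WT and 11.04, 10.1 and 17.1 CPM in TSK. Lyz1 rose by 2.71 on the log2 scale (SE 0.26, edgeR adjusted p = 0.00496) and passed 0.05 in 6 of 6 fits that left out 1 library. The Lyz2 to Lyz1 count ratio was 22.6 to 64.5 in WT and 8.92 to 13.4 in TSK.

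Pf4 encodes a chemokine stored by platelets and also made by tissue macrophages, and lies on chromosome 5 at 90772435 to 90773383. WT skin held 5.75, 2.24 and 4.84 CPM and TSK skin 7.87, 9.47 and 15.9 CPM. The groups did not overlap. The fitted log2 difference of 1.12 (SE 0.33, edgeR adjusted p = 0.105) was the highest of the 10 genes, and stayed between 0.79 and 1.31 when 1 library was left out. Ppbp, the platelet chemokine gene next in the family, was at 0.106 to 0.550 CPM in the 6 libraries. Of 9 platelet genes, 2 had enough counts to be tested and 0 passed, with a summed level of the 9 of 3.81 to 5.70 CPM in WT and 4.204 to 6.08 CPM in TSK. Those tested were Itga2b, the integrin subunit of platelets, at 0.053 on the log2 scale (SE 0.24), and Gp6, their collagen receptor, named after its values were seen. Gp6 was at 1.16, 1.47 and 2.05 CPM in WT and at 0.826, 0.624 and 0.983 CPM in TSK, below WT in every TSK library (-1.21, SE 0.36, edgeR adjusted p = 0.107).

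Cd68, a glycoprotein of late endosomes and lysosomes, lies on chromosome 11 at 69664213 to 69666153. It was found at 16.6, 6.55 and 12.7 CPM in WT skin and at 7.70, 12.02 and 24.4 CPM in TSK skin. The order of libraries was nearly that of Adgre1, and the groups overlapped. On the log2 scale the difference was 0.043 (SE 0.40, edgeR adjusted p = 0.968), turning to -0.51 without TSK 3 and -0.20 without WT 2.

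Ctss encodes cathepsin S, the lysosomal protease that trims the invariant chain during antigen presentation, and lies on chromosome 3 at 95526786 to 95556403. Levels of 61.2, 16.2 and 43.1 CPM were measured in WT, and of 24.5, 28.3 and 48.5 CPM in TSK. The WT libraries spanned the whole TSK range. edgeR gave -0.49 on the log2 scale (SE 0.39, adjusted p = 0.534), with -0.82 without WT 2, -0.82 without TSK 3 and -0.14 without WT 1.

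Aif1, which encodes a calcium-binding protein that bundles actin in macrophages, lies on chromosome 17 at 35170991 to 35176068. Its level was the lowest of the 10 genes, at 5.75, 1.22 and 3.96 CPM in WT and 1.21, 1.51 and 3.07 CPM in TSK, from 22 to 101 counts per library. WT 2 lay among the TSK libraries, while WT 1 and WT 3 lay above all of them. The fitted difference was -1.15 on the log2 scale (SE 0.50, edgeR adjusted p = 0.245), -1.63 without TSK 3 and -0.75 without WT 1. Without both WT 2 and TSK 3, an alternative chosen after seeing the data, it was -2.01 and the edgeR adjusted p was 0.0482, where 0.534% of all genes passed. These were the lowest WT and the highest TSK library for Aif1, so leaving them out could only widen the gap, and that call is no support for a difference.

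**Figure D2:**
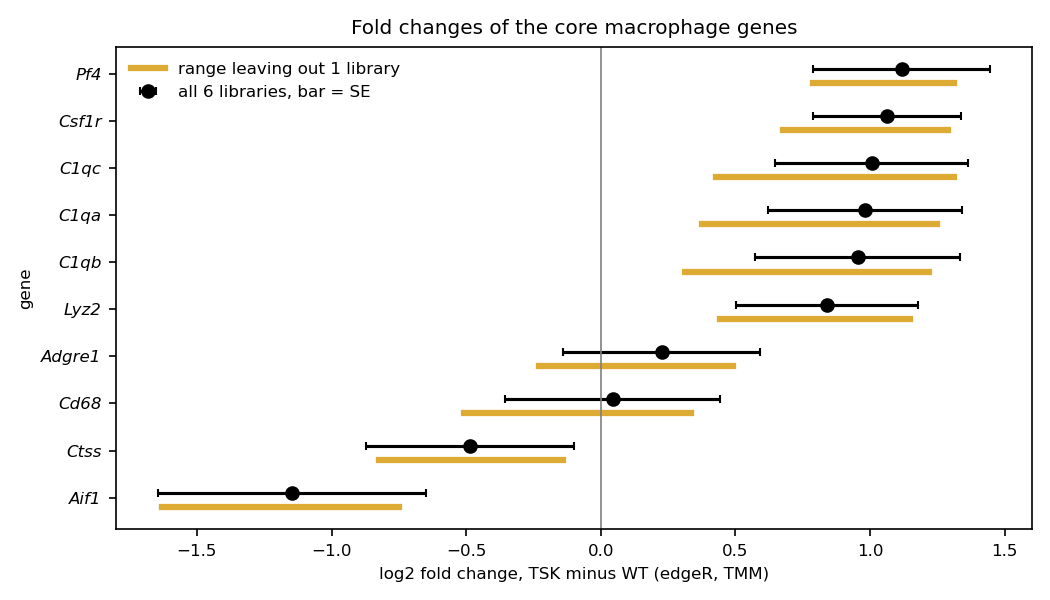
Log2 fold change of TSK against WT (horizontal axis, 0 is no difference) for each of the 10 genes, with the SE from all 6 libraries in black and the range over 6 fits that each left out 1 library in yellow. The values of Csf1r, C1qa, C1qb, C1qc, Lyz2 and Pf4 stayed above 0 in each of these fits, those of Adgre1 and Cd68 lay on both sides of 0, and those of Ctss and Aif1 stayed below 0.

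Count ratios between genes of 1 library do not depend on how libraries are scaled to each other, and 9 were computed after the values above had been seen, so that they are given without a test. The C1qa to C1qb ratio was 1.56 ± 0.136 in WT and 1.59 ± 0.0571 in TSK (SD, n = 3), and the C1qa to C1qc ratio was 1.21 ± 0.137 and 1.197 ± 0.140. The C1q chains thus kept near the same proportions in both genotypes. The C1qa to Ctss ratio was 0.728, 1.62 and 0.852 in WT and 1.97, 2.18 and 3.01 in TSK. The Pf4 to Aif1 ratio was 1.00, 1.83 and 1.22 in WT and 6.50, 6.28 and 5.17 in TSK. The Csf1r to Adgre1 ratio was 2.26, 4.10 and 2.86 in WT and 5.70, 5.13 and 4.89 in TSK. The groups did not overlap in 7 of the 9 ratios, but most pairs set a gene with a higher fold change against one with a lower, which by itself separates the groups, so that this count is no support for a difference. TSK 3 was the lowest of the TSK libraries in the Pf4 to Aif1, Csf1r to Adgre1 and Csf1r to Cd68 ratios and the highest in the C1qa to Ctss and Lyz2 to Ctss ratios. The Adgre1 to Cd68 ratio was 1.29 ± 0.0383 in WT and 1.51 ± 0.110 in TSK, and also did not overlap.

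**Figure D3:**
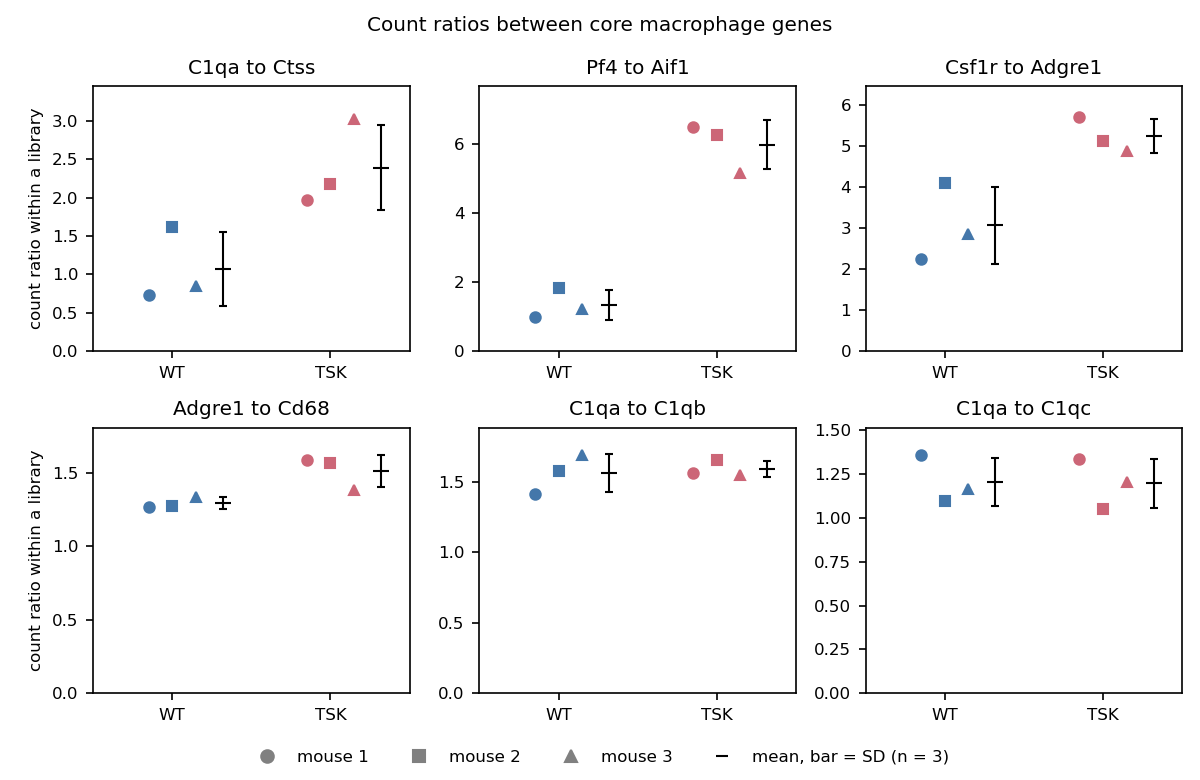
Ratio of the counts of a pair of genes within each library (vertical axes start at 0), with 1 point per mouse and the mean with SD (n = 3) beside the points. The C1qa to Ctss, Pf4 to Aif1, Csf1r to Adgre1 and Adgre1 to Cd68 ratios do not overlap between WT and TSK, while the ratios of the C1q chains overlap.

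Levels were compared between genes as CPM per kilobase of annotated exon (GENCODE M21). The length was the union of the exons annotated for a gene, and which transcripts the skin used was not tested. The order of genes thus depends on these lengths, as for C1qb (1088 bases) and C1qc (1931 bases). Before division by length, C1qc was above C1qb, with means of 29.4 and 23.3 CPM in WT and 72.0 and 54.1 CPM in TSK. In WT the order was Lyz2 (54.1 ± 25.0), C1qa (34.4 ± 8.88), Ctss (29.6 ± 16.7), C1qb (21.4 ± 6.94), C1qc (15.2 ± 2.495), Cd68 (9.50 ± 4.02), Csf1r (7.52 ± 1.38), Pf4 (5.93 ± 2.53), Adgre1 (4.78 ± 1.998) and Aif1 (2.38 ± 1.49), as means with SD. The ranges of each of the 9 neighbouring pairs in this order overlapped over the WT libraries. Within libraries, 6 of the 9 pairs kept the same order in all 3 WT mice, and C1qa and Ctss, Ctss and C1qb, and Cd68 and Csf1r did not. In TSK the order began with Lyz2 (115 ± 51.9), C1qa (82.0 ± 50.95), C1qb (49.8 ± 32.1) and C1qc (37.3 ± 22.8). Ctss followed, at 24.9 ± 9.47, and Csf1r (19.1 ± 8.54) and Pf4 (15.4 ± 5.90) came before Cd68 (11.7 ± 6.89). Of the 9 neighbouring pairs in TSK, 8 overlapped in range, and Adgre1 and Aif1, the last in the order, did not. All 9 pairs kept their order within each of the 3 TSK libraries. The same length was applied to a gene in every library, so the order within libraries cannot check the lengths.

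The CSF1 receptor axis was described with 17 further genes of ligands, adaptors and transcription factors. Of these, 16 were tested, 3 rose and 0 fell at an edgeR adjusted p of 0.05, and the median log2 fold change was 0.35. Over all genes tested, 2.71% rose and 0.681% fell, with a median of -0.026, and these are the background values for every list below. Il34, the ligand made mainly by keratinocytes, was at 15.4, 7.61 and 11.3 CPM in WT and 22.8, 26.8 and 24.2 CPM in TSK and rose (log2 fold change 0.85, SE 0.18, edgeR adjusted p = 0.0416). Csf1, the other ligand, had a log2 fold change of 0.69 (SE 0.25, adjusted p = 0.175, and 0.0324 with library size only) and did not overlap between the groups. When 1 library was left out, Csf1 ran from 0.38 to 0.86 and passed in 0 of 6 fits. The transcription factor genes Fli1 (0.80 on the log2 scale, edgeR adjusted p = 0.0342) and Cebpa (1.43, adjusted p = 0.0351) also rose, and both are used by other skin cells, Fli1 by endothelium and Cebpa by adipocytes and keratinocytes. Il34 and Fli1 each passed in only 1 of 6 fits that left out 1 library, the one without WT 1, and Cebpa in 2, those without WT 1 and TSK 3. Spi1, the gene of PU.1, was at 9.85, 2.88 and 4.95 CPM in WT and 6.38, 6.09 and 11.8 CPM in TSK, with a log2 fold change of 0.23 (SE 0.38, adjusted p = 0.793). The adaptor genes Tyrobp (0.38, SE 0.39) and Fcer1g (0.33, SE 0.42) were likewise within 1 SE of 0.

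Among 12 partners and receptors of C1q, all 12 were tested, 3 rose and 0 fell (2.71% and 0.681% of all genes), and the median log2 fold change was 0.94. C4b, a complement component cleaved by the C1 complex, was at 74.3, 56.8 and 53.6 CPM in WT and 192, 267 and 453 CPM in TSK and rose (log2 fold change 2.03, SE 0.28, edgeR adjusted p = 0.0123). C2, the other substrate of C1, rose by 1.12 on the log2 scale (adjusted p = 0.0294). Lrp1, an endocytic receptor, rose by 0.98 (adjusted p = 0.0475). When 1 library was left out, C4b passed in 5 of 6 fits, failing without WT 3, C2 in 2, failing without WT 2, WT 3, TSK 2 or TSK 3, and Lrp1 in 1, passing only without TSK 1. The proteases that complete the C1 complex, C1ra (0.94, SE 0.32, adjusted p = 0.145) and C1s1 (0.94, SE 0.28, adjusted p = 0.103), had fold changes close to those of the C1q chains and did not pass in the main edgeR fit. When 1 library was left out, C1ra ran from 0.56 to 1.20 and C1s1 from 0.72 to 1.19, and neither passed. With DESeq2 both passed, at adjusted p of 0.0423 for C1ra and 0.0149 for C1s1.

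Of 14 genes of lysosomal proteases and their partners, all 14 were tested, 1 rose and 0 fell, and the median was 0.12. The gene that rose was Ctsk, the cathepsin known from osteoclasts and also made by fibroblasts (8.66, 7.88 and 12.7 CPM in WT and 26.6, 25.2 and 54.3 CPM in TSK, log2 fold change 1.57, edgeR adjusted p = 0.0360). Ctsk passed in 2 of 6 fits without 1 library, those without TSK 1 and TSK 2. Cd74, the invariant chain that cathepsin S processes, was at 121, 49.6 and 95.2 CPM in WT and 171, 185 and 243 CPM in TSK, or 0.93 higher in TSK on the log2 scale (SE 0.25, edgeR adjusted p = 0.0842, and 0.00703 with DESeq2). Cst3, a secreted cathepsin inhibitor, had -0.22 (SE 0.13) and Ctsl 0.11 (SE 0.12). Of 12 paralogs of the 10 genes, 9 were tested and 2 rose, Lyz1 and Ctsk, with a median of 0.59.

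A list of 24 other macrophage genes gave 23 tested genes, of which 2 rose and 1 fell, with a median log2 fold change of 0.54. The genes that rose were Vsig4, a complement receptor of resident macrophages (0.228, 0 and 0.0550 CPM in WT and 1.16, 1.51 and 1.86 CPM in TSK, log2 fold change 3.68, SE 0.62, edgeR adjusted p = 0.0202), and Lyve1, a hyaluronan receptor of perivascular macrophages and lymphatic vessels (7.97, 9.10 and 8.96 CPM in WT and 23.6, 35.1 and 91.1 CPM in TSK, 2.22, adjusted p = 0.0352). Vsig4 was at so few counts in WT that its fold depends on the prior count. Spp1, which encodes osteopontin, fell from 8.77, 4.41 and 5.83 CPM to 2.26, 1.94 and 2.60 CPM (-1.74, SE 0.24, adjusted p = 0.0123). Vsig4 did not pass without WT 3 or TSK 3, Lyve1 did not pass without any 1 of the WT libraries or with limma-voom (adjusted p = 0.0644), and Spp1 did not pass without WT 3. Mrc1, the mannose receptor, was at 49.8, 44.5 and 57.7 CPM in WT and 75.0, 111 and 230 CPM in TSK (1.16, SE 0.35, adjusted p = 0.111). Cd163, the haemoglobin scavenger receptor, had 1.44 (SE 0.38, adjusted p = 0.0820). Neither passed in the main edgeR fit. Both passed with DESeq2, at adjusted p of 0.00970 for Mrc1 and 0.00161 for Cd163, and also with library size only, limma-trend and no low-count filter. When 1 library was left out, Mrc1 ran from 0.61 to 1.44 and Cd163 from 0.91 to 1.72, and each passed in 1 of 6 fits. Fold changes on the list went both ways, with 15 of 23 above 0 and 8 below. After TMM scaling, 8 genes lay above every WT library and 3 below (14.1% and 10.6% of all genes). Among those with lower values, named after they were seen, Mpeg1, a pore-forming protein of macrophages, was at 41.8, 10.3 and 26.7 CPM in WT and 10.2, 10.8 and 13.6 CPM in TSK (-1.41, SE 0.36, edgeR adjusted p = 0.0755). Cx3cr1, the fractalkine receptor, had -0.96 (SE 0.29, adjusted p = 0.110) and was lower in every TSK library, and Fcgr1, an Fc receptor, had -1.05 (SE 0.58, adjusted p = 0.364) with overlapping groups. Retnla, named in the study both for this skin and for tumour macrophages, was at 10.6, 7.35 and 3.79 CPM in WT and 80.9, 69.0 and 133 CPM in TSK and rose by 3.44 on the log2 scale (adjusted p = 0.00606).

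**Figure D4:**
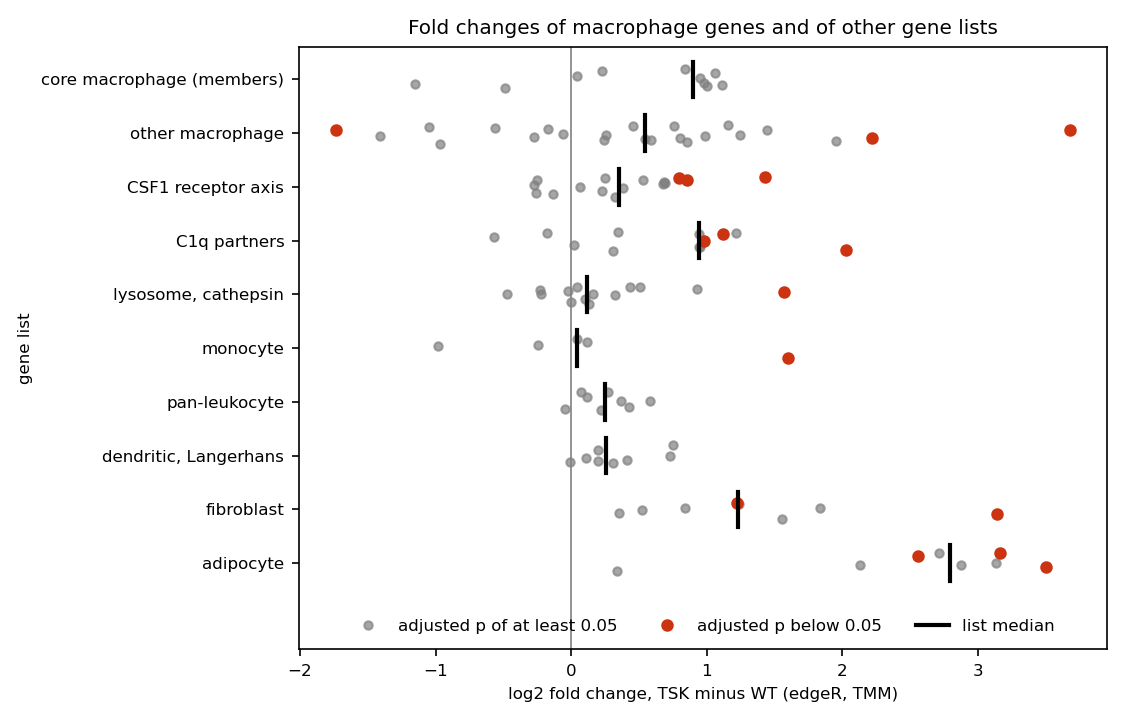
Log2 fold change of TSK against WT (horizontal axis) for the tested genes of 10 lists, 1 point per gene, red at an adjusted p below 0.05, with a black bar at the list median. The 10 core macrophage genes have a median of 0.90 (0.34 without TSK 3) and no red point, and the 23 other macrophage genes spread from -1.74 to 3.68.

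Genes of other white blood cells were read for the same libraries. Of 8 genes of all leukocytes, 8 were tested and 0 passed, with a median log2 fold change of 0.25, and Ptprc, the common leukocyte antigen, had 0.070 (SE 0.30). The summed level of these 8 was 55.9 to 166 CPM in WT and 127 to 215 CPM in TSK. Of 6 monocyte genes, 5 were tested and 1 rose, the interferon-induced Ifitm6 (1.60, edgeR adjusted p = 0.0268, and not without WT 2, WT 3, TSK 1 or TSK 2), with a list median of 0.040 and Ccr2 at -0.24 (SE 0.52). Of 10 dendritic and Langerhans cell genes, 8 were tested and 0 passed (median 0.26), with Cd207, the Langerhans cell lectin, at 0.31 (SE 0.29). Of 12 neutrophil genes only 3 had enough counts (median -0.69, 0 passed). The summed level of the 12 was 7.04 to 12.2 CPM in WT and 5.57 to 9.13 CPM in TSK, S100a8 was at 0.532 to 0.935 CPM in WT and 0 to 0.0530 CPM in TSK, and Ly6g, the defining marker of mouse neutrophils and named here after its values were seen, had no count in any library, where 3 counts equal 0.156 to 0.171 CPM. Mast cell (5 genes, 4 tested, median 1.11), T and NK cell (7 genes, 6 tested, median 0.50) and B cell genes (4 genes, 1 tested, -0.34) had 0 calls.

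Genes of the other tissues of the skin piece were read in the same way. Of 8 fibroblast genes, 2 rose (Pi16 and Dpt, median of the list 1.23). Of 8 adipocyte genes, 3 rose (Lep, Cfd and Plin1, median 2.80), with a summed level of 319 to 415 CPM in WT and 616 to 2420 CPM in TSK, highest in TSK 2. Of 5 endothelial genes, 1 rose (Tek, median 0.66, 122 to 146 CPM in WT and 196 to 360 CPM in TSK). The 13 adult skeletal muscle genes (median -0.75), 8 keratinocyte genes (-0.25) and 5 red blood cell genes (0.58) had 0 calls. Their summed levels were 152300 to 220000, 5134 to 9597 and 47.2 to 151 CPM in WT and 133000 to 149500, 6442 to 10370 and 110 to 312 CPM in TSK. After TMM scaling, 8 of the 13 muscle genes lay below every WT library and 1 above (10.6% and 14.1% of all genes). The calls of Pi16 and Tek failed without WT 3, those of Lep without WT 2 or WT 3, those of Cfd and Plin1 without any 1 of the WT libraries, and that of Dpt without WT 3, TSK 2 or TSK 3. The part of these tissues in the macrophage values was not tested.

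The 6 genes outside the 10 whose TMM-scaled log2 level was most like the mean profile of the 10, among genes with at least 5 CPM on average, were Myo1g, Pla2g15, Gm37233, Mamld1, Nrros and Lztr1. The measure of likeness was Pearson's r over 6 libraries, which ran from 0.972 to 0.984 and is given as a description. Myo1g, a myosin of blood cells, was at 11.2, 6.60 and 10.5 CPM in WT and 10.6, 12.6 and 19.6 CPM in TSK, and Nrros, a protein that binds latent TGF-beta in myeloid cells, at 14.5, 7.15 and 10.4 CPM in WT and 12.9, 16.4 and 30.1 CPM in TSK. Their profile was lowest in WT 2 and highest in TSK 3, as in most of the 10 genes. The log2 fold changes of the 6 genes were 0.066 to 0.63, with edgeR adjusted p of 0.292 to 0.823. Within the 10, r with the mean profile was 0.961 for Adgre1 and 0.893 for Cd68, but 0.428 for Aif1 and 0.639 for Ctss. The mean includes the gene itself, which raises these r values.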

How the data were processed

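Bulk RNA of dorsal skin was measured in 3 TSK and 3 WT mice, grouped by their labels. The authors depleted ribosomal RNA, prepared stranded libraries, sequenced single-end reads of 50 bases, aligned them with STAR to mm10 and quantified Ensembl genes in Partek Flow 11.0. The authors deposited estimated counts per gene (43.3% to 45.4% of non-zero values were whole within 0.001) and CPM, which is each estimated count scaled to a common library total. The estimated counts were rounded, as edgeR needs whole numbers. They were then tested with edgeR 4.0.16 (R 4.3.3; filterByExpr, TMM, quasi-likelihood test, two-sided, Benjamini-Hochberg over 19971 genes). SE is the fold change over the square root of F. The p-values measure the spread between these mice. DESeq2 1.42.0 and limma 3.58.1 were alternatives, beside other scalings, filters, a replicate block and leaving out libraries. The edgeR steps were tested on simulated data. The genes named were the 10 members, Fbn1, Retnla, a fixed set from each list, those of each list with an adjusted p below 0.05 (up to 5, or 3 for cell type lists) and the 6 genes most like the members; S100a8 and Ppbp had too few counts to test. The members and the lists were chosen with earlier results of these data known. Coordinates are 1-based from GENCODE M21 (GRCm38), whose gene starts equal those of the deposited tables for the 10 genes. Shared 50-base stretches were counted over GENCODE M21 transcripts on either strand.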

Additional observations from a re-analysis of the deposited data

How the results depend on the processing

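The count of core macrophage genes at an adjusted p below 0.05 was 0 with edgeR and TMM, and 0 with DESeq2 size factors, upper quartile scaling, the stricter CPM filter, composition genes left out and limma-voom. It was 2 with library size only, 2 with limma-trend on log2(CPM + 1) or log2(CPM + 0.1), 2 with no low-count filter (Csf1r and Pf4 in each) and 3 with DESeq2 (with C1qc). The median over all genes was itself 0.25 with library size only and 0.20 and 0.25 with limma-trend, against -0.026. With the replicate block it was 1 (Csf1r, adjusted p = 0.0347). Deviations from the group means had r of 0.0112, 0.167 and -0.0938 for libraries sharing a replicate number. For libraries with different numbers r was -0.194 to 0.180. With 3 mice per group, these values cannot decide whether the numbers pair the mice. Leaving out 1 library gave 0 to 1 calls (Csf1r without TSK 1) and a median of 0.34 (without TSK 3) to 1.14 (without TSK 1). Without both WT 2 and TSK 3, chosen after seeing the data, there was 1 call (Aif1) and a median of 0.19. The cause of these changes was not tested.

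Of 180 values of the 10 genes under alternatives, 158 kept direction and side of the threshold, 14 gained a call and 8 changed sign. The sign changes were in Cd68 with limma-voom (-0.044), with the replicate block (-0.025) and without both WT 2 and TSK 3 (-0.76), in Adgre1 without both (-0.48), and when 1 library was left out, where Adgre1 ran from -0.23 to 0.49 and Cd68 from -0.51 to 0.33. Of 630 values of the other named genes, 74 lost a call, 33 gained one and 21 changed sign, all 21 in genes that had not passed. Beside the fits without 1 library, calls were lost with limma-voom (Lyve1, Ctsk, Ifitm6, Lep, Plin1 and Lrp1), upper quartile scaling (Il34 and Lrp1), the replicate block (Il34, Fli1 and Lrp1) and without both WT 2 and TSK 3 (Il34, Fli1, Cebpa, C2, Lrp1, Ctsk, Vsig4, Lyve1, Dpt, Lep, Cfd and Plin1). Calls were gained by C1s1, Cd74, Mrc1 and Cd163 with DESeq2, library size only, limma-trend at both pseudocounts and no low-count filter, by C1ra with all of these but the last, by Csf1 with library size only and limma-trend, by C1s1, Mrc1 and Cd163 with the replicate block, by Mrc1 and Cd163 without TSK 1 and by Cd74 without WT 1. The changes of sign were in Cst3 with library size only (0.054) and limma-trend (0.054 at both pseudocounts), Ccr2 with limma-trend (0.25 and 0.29) and the replicate block (0.0099), and, without both WT 2 and TSK 3, Spi1 (-0.41), Tyrobp (-0.23), Fcer1g (-0.41), Ptprc (-0.36) and Itga2b (-0.16). Leaving out 1 library, Spi1 ran from -0.13 to 0.71, Fcer1g from -0.054 to 0.79, Ptprc from -0.19 to 0.48, Itga2b from -0.10 to 0.21, Cd207 from -0.012 to 0.5006 and Ccr2 from -0.64 to 0.63. Aif1 had the fewest counts of the 10 genes, down to 22 in TSK 1, and the part of counting error in its spread was not tested.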
